A study of Danio rerio with 8 samples.

Results

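The transcription factors of the cardiac lineage were followed across bulk RNA sequencing libraries of zebrafish hearts. They comprise the zinc-finger factors gata4, gata5 and gata6, the homeodomain factors nkx2.5 and nkx2.7, the T-box factors tbx5a and tbx20, the basic helix-loop-helix factor hand2, and the MADS-box factors mef2ca and mef2cb. The 10 genes were chosen by symbol from the gene names of the deposited table, out of 31953 genes counted. Each matched 1 Ensembl identifier (gata4, ENSDARG00000098952; gata5, ENSDARG00000017821; gata6, ENSDARG00000103589; nkx2.5, ENSDARG00000018004; nkx2.7, ENSDARG00000021232). The identifiers of the others were ENSDARG00000024894 for tbx5a, ENSDARG00000005150 for tbx20, ENSDARG00000008305 for hand2, ENSDARG00000029764 for mef2ca and ENSDARG00000009418 for mef2cb. All 10 passed the filter on low counts, which kept 19330 genes, although nkx2.7 did so only through its larval libraries. Neither the genome nor the sequences of these genes were used here.

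The 8 libraries form 4 groups of 2. Control libraries came from uninjured adults of about 6 months that received the vehicle, 0.1% dimethyl sulfoxide. Adults at 3 and 7 days post injury (dpi) had been given 5 mM metronidazole in 0.1% dimethyl sulfoxide for 48 hours. The drug kills cells that carry a bacterial nitroreductase, which the transgene Tg(vmhc:mCherry-Eco.NfsB) places, fused to mCherry, under the promoter of the ventricular myosin gene vmhc. The ablation is therefore aimed at ventricular cardiomyocytes and not at atrial or non-muscle cells. Pools of 4 to 6 hearts gave each adult library, and about 500 hearts of untreated larvae aged 3 days gave each larval one. The labels list AB wild-type fish and the heat-shock lines hsWnt8:GFP and hsDKK1:GFP beside the ablation line, without stating the genotype of each library. No group received metronidazole without ablation, so the drug and the loss of cells cannot be told apart. Whether replicate pools are separate clutches or treatments is not in the labels, so p-values measure the spread between these libraries, which may be partly technical.

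These factors form a network that specifies heart muscle. Gata and Nkx2 factors act early in the cardiac mesoderm, where they switch on one another and genes of the contractile apparatus; T-box and Hand factors shape chambers and the outflow region; and Mef2 factors drive muscle differentiation. Most remain expressed in the adult heart, and several return as markers of dedifferentiating cardiomyocytes during zebrafish heart regeneration. Some also work elsewhere: gata factors in endoderm and blood vessels, hand2 and nkx2.7 in the pharyngeal arches, tbx5a in the pectoral fin.

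Total counts ranged from 10868019 to 26628897 per library. Values are given as CPM, counts scaled by library total and TMM factor, and a gene is said to have risen or fallen where its adjusted p was under 0.05. The scaling factors were 0.418 and 0.452 at 7 dpi against 0.956 to 1.60 elsewhere, so the 7 dpi levels depend on the scaling more than the others. The 7 dpi libraries also had the highest mitochondrial share, 24.7% and 28.2% of counts against 7.14% to 15.3%, and the fewest genes detected, 18744 and 17785 against 20660 to 23312, and the part of these in the 7 dpi results was not tested. The control and 3 dpi columns share 1 of 3 column-name prefixes, whereas the 7 dpi and larval columns have 1 each. What the prefix stands for is not in the labels, and group and prefix cannot be told apart there. Libraries also differed in the balance between genes of small and of giant proteins, 2 lists written after the data were seen. The median log2 CPM of 72 small-protein genes exceeded that of 94 giant-protein genes by 6.13 and 5.64 at 7 dpi. In the other groups the excess was 1.22 to 3.01, the highest being control replicate 2. The part of this index in the results below was not tested except where stated.

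**Figure D1:**
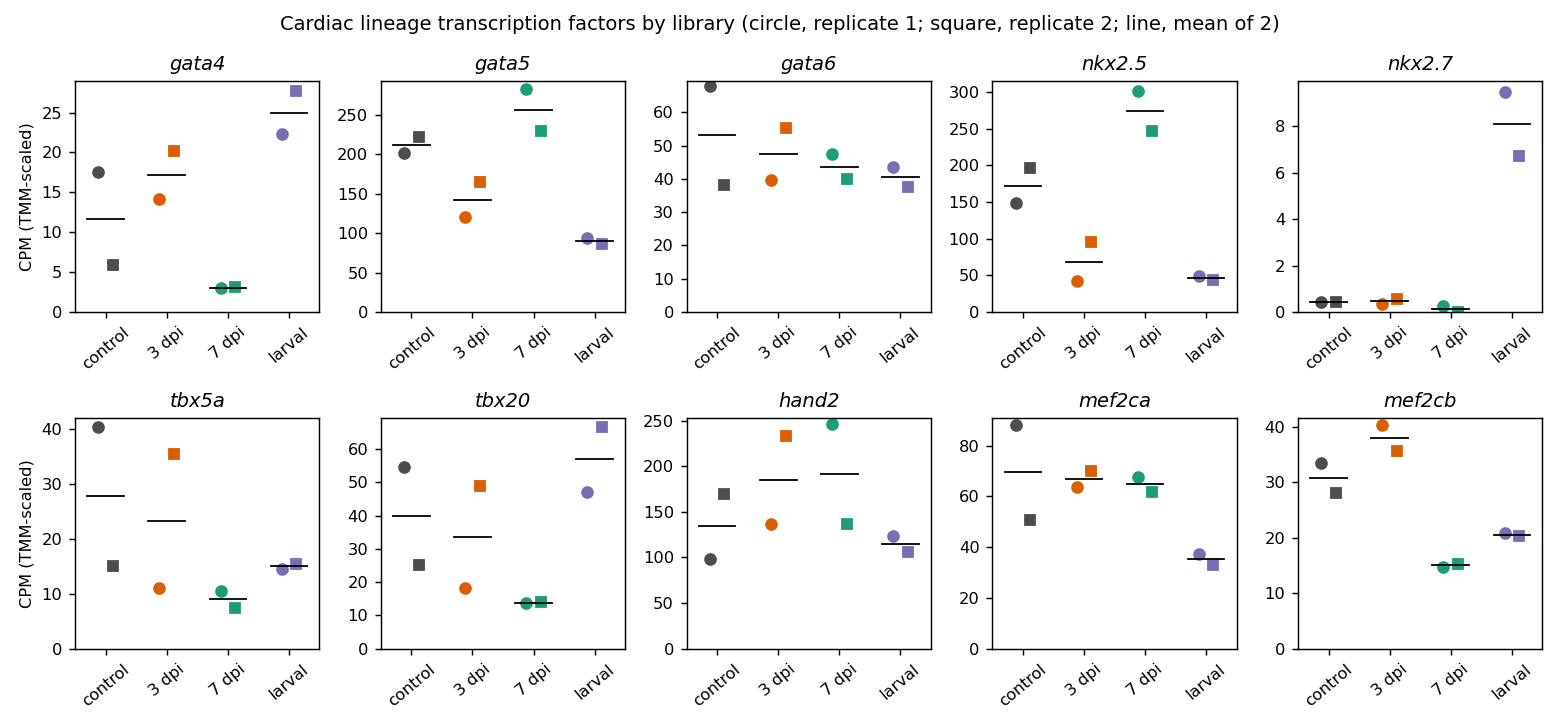
TMM-scaled CPM (linear axis from 0) of each of the 10 factors in the 8 libraries; circles are replicate 1, squares replicate 2 and lines the mean of each group. The 2 larval libraries stand far above the adult ones for nkx2.7, gata4 is lowest at 7 dpi, and nkx2.5 is highest there on this scale, though at a log2 difference of -0.58 from control when scaled by library totals.

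The gata genes did not move together. Gata4, which opens chromatin at cardiac and endodermal genes, had 17.5 and 5.84 CPM in control, 14.1 and 20.2 (3 dpi), 3.02 and 3.07 (7 dpi), and 22.3 and 27.7 in larval hearts. Both 7 dpi libraries lay below every other library, and the control pair spanned a 3.00-fold range, wider than any other pair of this gene. Gata4 fell at 7 dpi against control by 1.93 on the log2 scale (SE 0.47, edgeR quasi-likelihood test with Benjamini-Hochberg adjustment, adjusted p = 0.0093). The call rested on control replicate 1, without which the log2 difference was -0.96 and the edgeR adjusted p 0.082, while without control replicate 2 it was -2.53. From 3 to 7 dpi gata4 fell by 2.49 (SE 0.47, edgeR adjusted p = 0.0015), and larval hearts exceeded 7 dpi by 3.03 (SE 0.47, edgeR adjusted p = 0.000242). At 3 dpi the log2 difference from control was 0.57 (SE 0.42, edgeR adjusted p = 0.416), and the libraries overlapped. Without control replicate 1 it was 1.503, with an edgeR adjusted p of 0.0281. Larval hearts exceeded control by 1.11 (SE 0.42, edgeR adjusted p = 0.0422). Without control replicate 1 this was 2.02. The call was lost without control replicate 2, at 0.51, and without either larval replicate, at 1.25 without the first and 0.95 without the second, and with upper-quartile scaling or a fit of these groups alone.

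Gata5, which lies upstream of nkx2.5 in zebrafish heart formation, ranged less. Its levels were 202 and 222 CPM in control, 120 and 165 (3 dpi), 283 and 230 (7 dpi), and 93.5 and 86.1 in larval hearts. The larval pair lay below all adult libraries, and the 7 dpi pair lay above them. Gata5 rose from 3 to 7 dpi by 0.85 on the log2 scale (SE 0.23, edgeR adjusted p = 0.0118). Library totals turned the sign, to -0.84, and gata5 was then called lower. The rise with TMM scaling was not called without 3 dpi replicate 1, at 0.62, or without 7 dpi replicate 1, at 0.69. In larval hearts it was lower than in control at -1.24 (SE 0.24, edgeR adjusted p = 0.00113), and lower than at 7 dpi at -1.51 (SE 0.24, edgeR adjusted p = 0.000249), where library totals gave 0.35. Against 3 dpi it was at -0.67 (SE 0.23, edgeR adjusted p = 0.0328). This last call was lost when 3 dpi replicate 2 or either larval library was left out, at -0.43, -0.73 and -0.60. It was also lost with library totals, with no filter and with the replicate number as a block. The differences of 3 dpi and 7 dpi from control were -0.57 and 0.27 and did not pass. With library totals the second was -0.98 and was called lower.

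Gata6, the third member, which acts beside gata5 in heart and liver development, gave no call in any of the 6 comparisons with all libraries and TMM scaling. It had 67.9 and 38.3 CPM in control, 39.8 and 55.4 (3 dpi), 47.5 and 39.8 (7 dpi), and 43.7 and 37.7 in larval hearts. All 4 groups overlapped, and the log2 differences lay between -0.38 for larval hearts against control and -0.10 for larval hearts against 7 dpi. The larval difference from control was -0.74, with an edgeR adjusted p of 0.0465, when control replicate 2 was left out.

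Nkx2.5, the homeodomain factor that maintains cardiomyocyte identity, had 148 and 196 CPM in control, 42.0 and 94.8 (3 dpi), 302 and 246 (7 dpi), and 49.4 and 44.0 in larval hearts. In each adult pair of groups the libraries separated completely, with 3 dpi lowest and 7 dpi highest, and the larval pair fell within the 3 dpi range. It was the 1 member that changed at 3 dpi, where it fell by 1.33 on the log2 scale against control (SE 0.34, edgeR adjusted p = 0.0258). The call was lost without 3 dpi replicate 1, at -0.85 with an edgeR adjusted p of 0.133, and without control replicate 2, at -1.11 with an edgeR adjusted p of 0.156. It was also lost with library totals, at -0.90, and in a fit of these groups alone, and without 3 dpi replicate 2 the value was -2.04. From 3 to 7 dpi nkx2.5 rose by 2.00 (SE 0.35, edgeR adjusted p = 0.000918), and the 7 dpi level exceeded control by 0.67 without passing (SE 0.34, edgeR adjusted p = 0.137), at -0.58 with library totals. The rise was 1.52 without 3 dpi replicate 1 and 2.697 without 3 dpi replicate 2. Scaled by library totals, it was 0.32 and did not pass. In larval hearts nkx2.5 fell by 1.88 against control (SE 0.35, edgeR adjusted p = 0.000922) and by 2.55 against 7 dpi (SE 0.36, edgeR adjusted p = 0.000109), the latter at -0.69 and not passing with library totals. Its difference from 3 dpi was -0.55 and did not pass, but was -1.04, with an edgeR adjusted p of 0.0109, without 3 dpi replicate 1.

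Each factor was also set against the summed reads of 40 cardiomyocyte contractile genes in the same library, a ratio that no scaling factor enters. In bulk RNA, fewer cells of a type and less RNA per cell cannot be told apart. Per 100000 contractile reads nkx2.5 had 180 and 224 reads in control, 136 and 174 (3 dpi), and 163 and 167 (7 dpi), against 684 and 615 in larval hearts. The adult groups thus lay close together by this measure, the 3 dpi and 7 dpi pairs overlapping. Gata4 had 21.3 and 6.68 reads in control, 45.6 and 37.0 (3 dpi), 1.62 and 2.08 (7 dpi), and 308 and 388 in larval hearts, so its adult groups did not overlap on this base, whereas in CPM control and 3 dpi did. Gata5 had 245 and 254 reads in control, 389 and 302 (3 dpi), 152 and 155 (7 dpi), and 1294 and 1204 in larval hearts. On this base gata5 was lowest at 7 dpi, whereas in CPM it was highest there. Hand2 had 119 and 194 reads in control and 441 and 428 at 3 dpi, whereas in CPM these groups overlapped. Mef2ca had 107 and 58.0 reads in control, 205 and 128 (3 dpi), and 518 and 462 in larval hearts. Mef2cb had 40.7 and 32.2, 130 and 65.2, and 288 and 284 in those groups. Larval mef2ca and mef2cb thus lay above control on this base, whereas in CPM they lay below it. Contractile genes themselves summed to 82372 and 87465 CPM in control, 30960 and 54541 (3 dpi), 185903 and 147827 (7 dpi), and 7223 and 7151 in larval hearts. As a share of all counts they took 9.25% and 8.36%, 4.51% and 7.40%, 7.76% and 6.69%, and 1.13% and 1.14%, so that the 7 dpi excess over control was present in the TMM-scaled values and not in the shares. Their part in the nkx2.5 result was not tested beyond these ratios.

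Nkx2.7, which acts with nkx2.5 in zebrafish chamber development, was a larval transcript in these data. Adult libraries held 5 and 7 counts in control, 6 and 11 (3 dpi), and 3 and 0 (7 dpi), against 255 and 208 counts in larval hearts. As CPM these were 0.410 and 0.413, 0.347 and 0.571, 0.274 and 0, and 9.48 and 6.71; 3 counts in the library without any would be 0.249 CPM. Every larval library exceeded every adult one. Larval nkx2.7 was 19.4 times the control level (95% counting interval 11.01 to 37.8), 17.2 times the 3 dpi level (10.6 to 29.7) and 61.2 times the 7 dpi level (20.8 to 298), where the intervals cover counting error only. The edgeR log2 differences were 4.27 (SE 0.67, adjusted p = 0.000323), 4.11 (SE 0.65, adjusted p = 0.000417) and 5.87 (SE 0.81, adjusted p = 9.92e-05). Nkx2.7 passed the low-count filter only through the larval libraries, where it is high, so these tests are not independent of that selection. With no low-count filter the differences were 4.31, 4.14 and 5.95. The larval difference from 7 dpi rests on 3 counts in 1 library: without 7 dpi replicate 2 it was 4.83, and without replicate 1, where the other library is at 0, the fitted 10.27 is no bound. Between adult groups no difference passed with TMM scaling and all libraries. The 7 dpi level was called lower than control and 3 dpi without 7 dpi replicate 1, with edgeR adjusted p of 0.0385 and 0.0223, and with library totals, with edgeR adjusted p of 0.025 and 0.00601. In the RefSeq annotation of assembly GRCz12tu the gene overlaps rhobtb2a, which had 2.56 and 2.77 CPM in larval hearts and 13.6 and 3.19 in control. The strand setting of the counting is not known here, so reads of the overlap cannot be told apart. The same holds for nkx2.5, which overlaps 2 annotated long non-coding RNAs there.

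The T-box genes were lowest at 7 dpi among adult groups. Tbx5a, a regulator of chamber and fin formation, had 40.4 and 15.0 CPM in control, 11.1 and 35.5 (3 dpi), 10.5 and 7.39 (7 dpi), and 14.5 and 15.5 in larval hearts. The control and 3 dpi pairs were each more than 2-fold apart and overlapped, while both 7 dpi libraries lay below all others. Tbx5a fell at 7 dpi against control by 1.63 on the log2 scale (SE 0.55, edgeR adjusted p = 0.0382). It did not pass without control replicate 1, at -0.78, nor without either 7 dpi library, at -1.91 and -1.42. Against 3 dpi the difference was -1.38 (SE 0.55, edgeR adjusted p = 0.0552), and without 3 dpi replicate 1 it was -2.00, with an edgeR adjusted p of 0.00648. DESeq2 called it, with an adjusted p of 0.0323, as did edgeR with upper-quartile scaling, library totals or no low-count filter. Larval tbx5a was not called against control, at -0.88, 3 dpi, at -0.64, or 7 dpi, at 0.74. The alternatives that called it were, against 3 dpi, leaving out 3 dpi replicate 1, at -1.26, and, against control, no low-count filter. Against 7 dpi they were no filter, library totals, at 2.61, and a fit of these groups alone, at 0.76.

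Tbx20, which restrains tbx5a and is needed for heart tube growth, had 54.7 and 25.3 CPM in control, 18.1 and 48.9 (3 dpi), 13.6 and 14.1 (7 dpi), and 47.0 and 66.8 in larval hearts. Both 7 dpi libraries were again the lowest, and the control and 3 dpi libraries overlapped. It fell at 7 dpi against control by 1.52 (SE 0.46, edgeR adjusted p = 0.0247) and against 3 dpi by 1.27 (SE 0.46, edgeR adjusted p = 0.0393). Neither call held without either 7 dpi library. The first was also lost without control replicate 1, at -0.89. The second was also lost without 3 dpi replicate 2, at -0.40, and with the replicate number as a block. Larval tbx20 exceeded 7 dpi by 2.04 (SE 0.47, edgeR adjusted p = 0.0028), and its differences from control, 0.51, and from 3 dpi, 0.76, did not pass. Without 3 dpi replicate 2 the last was 1.65, with an edgeR adjusted p of 0.0112, and it was also called with no low-count filter.

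Hand2, required for ventricular cardiomyocyte formation, gave no call in the fit of all 8 libraries with TMM scaling and the low-count filter. It had 98.2 and 170 CPM in control, 137 and 234 (3 dpi), 246 and 137 (7 dpi), and 124 and 105 in larval hearts. The 3 adult groups overlapped, and the larval pair lay below both injured groups. The largest log2 difference was -0.74 for larval hearts against 7 dpi (SE 0.36, edgeR adjusted p = 0.0908), which was -1.12 with an edgeR adjusted p of 0.0384 without 7 dpi replicate 2. That difference was also called with no low-count filter and in a fit of these groups alone. With library totals it turned to 1.13 and was called higher. Without 3 dpi replicate 1 the larval difference from 3 dpi was -1.04, with an edgeR adjusted p of 0.0481. Hand2 overlaps cep44 in the RefSeq annotation, a gene with 3.16 to 12.7 CPM across libraries.

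The mef2c paralogs, both activators of myosin and other muscle genes, parted at 7 dpi. Mef2ca had 88.3 and 50.7 CPM in control, 63.5 and 70.1 (3 dpi), 67.7 and 61.7 (7 dpi), and 37.4 and 33.0 in larval hearts. Its adult groups overlapped and its larval pair lay below them all. Larval mef2ca was lower than control at -0.98 on the log2 scale (SE 0.26, edgeR adjusted p = 0.00774), than 3 dpi at -0.92 (SE 0.26, edgeR adjusted p = 0.0118) and than 7 dpi at -0.88 (SE 0.26, edgeR adjusted p = 0.0116). With library totals the last turned to 0.98 and was called higher. All 3 calls were lost without larval replicate 2, with edgeR adjusted p of 0.0686, 0.0957 and 0.0891, and those against control and 3 dpi with library totals, at -0.41 and -0.76.

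Mef2cb had 33.5 and 28.1 CPM in control, 40.4 and 35.6 (3 dpi), 14.8 and 15.3 (7 dpi), and 20.8 and 20.3 in larval hearts. Replicates of this gene were close in every group, and the 4 groups did not overlap. It fell at 7 dpi by 1.03 against control (SE 0.21, edgeR adjusted p = 0.00387) and by 1.34 against 3 dpi (SE 0.21, edgeR adjusted p = 0.000538), and both calls held whichever library was left out. Larval mef2cb was lower than 3 dpi at -0.88 (SE 0.21, edgeR adjusted p = 0.00443), a call lost without larval replicate 2, and lower than control at -0.58 (SE 0.21, edgeR adjusted p = 0.0306), which library totals brought to 0.0099. The call against control was lost without control replicate 1 or either larval library, and with DESeq2, at an adjusted p of 0.0704, with DESeq2's size factors in edgeR, and with no low-count filter.

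**Figure D2:**
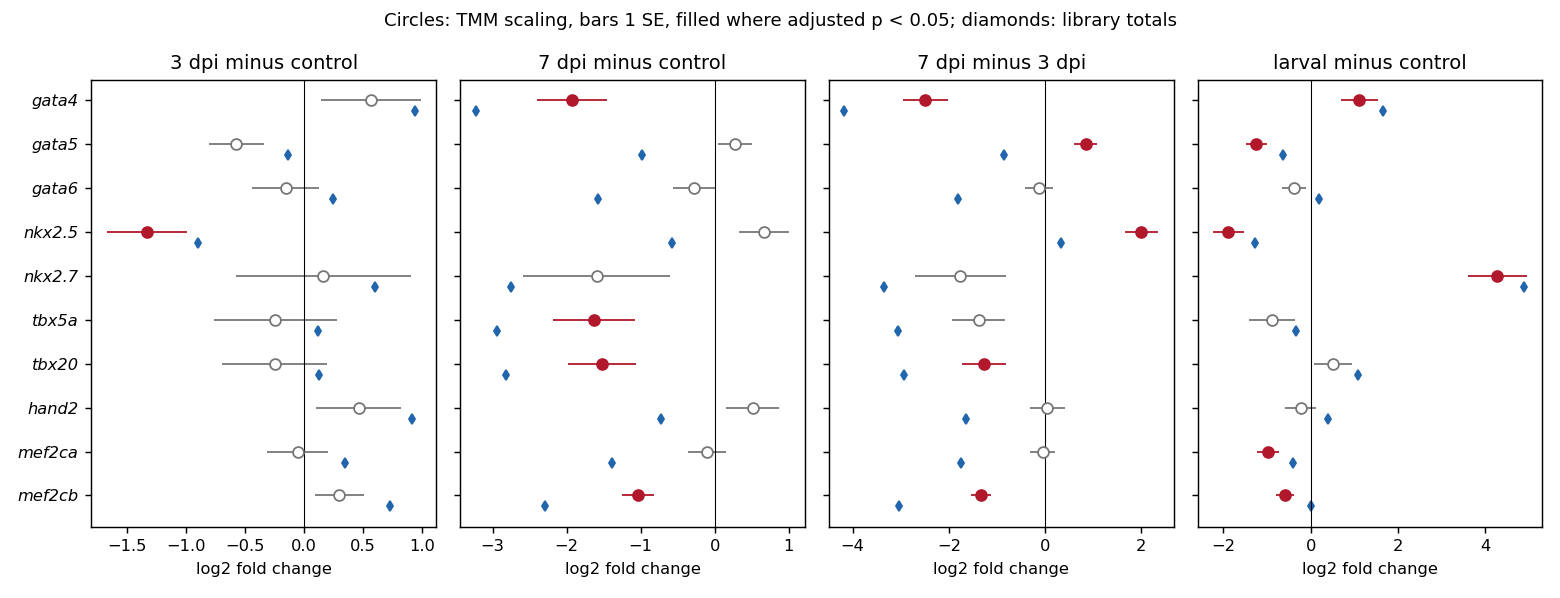
Log2 fold changes of the 10 factors in 4 of the comparisons; circles use TMM scaling, with bars of 1 SE and filled where the edgeR adjusted p was under 0.05, and diamonds use library totals. Nkx2.5 is the 1 factor past it at 3 dpi, at -1.33, and gata4, tbx5a, tbx20 and mef2cb pass below 0 at 7 dpi.

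Counted over the members, 0 of 10 were higher and 1 was lower at 3 dpi against control, where 15.6% of all tested genes were called, 9.05% higher and 6.55% lower. At 7 dpi against control 0 were higher and 4 lower, beside a background of 38.7%, made of 18.7% higher and 20.0% lower. From 3 to 7 dpi 2 were higher and 3 lower, beside 50.9%, with 22.8% higher and 28.1% lower. Larval hearts had 2 members higher and 4 lower against control, beside 60.2%, with 32.6% higher and 27.6% lower. Against 3 dpi 1 was higher and 3 lower, beside 54.1%, with 28.7% higher and 25.3% lower, and against 7 dpi 3 were higher and 3 lower, beside 68.5%, with 39.3% higher and 29.2% lower. Nkx2.7 was among the higher members in each larval comparison. It passed the low-count filter only through its larval libraries, which partly sets those counts. The share of members called in either direction was close to or below the background in all 6 comparisons. The median log2 change of the members was -0.11 at 3 dpi, -0.66 at 7 dpi and -0.48 in larval hearts against control, beside 0.0029, -0.13 and 0.14 over all tested genes. The comparisons with control share the same 2 control libraries.

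Scaling by library totals shifted all genes, moving their median to 0.44 at 3 dpi and -1.37 at 7 dpi against control, -1.89 at 7 against 3 dpi, and 0.75, 0.26 and 2.25 in larval hearts against control, 3 dpi and 7 dpi. A change of scaling shifts every gene alike, so differences between genes are nearly fixed. With TMM scaling, and relative to the median of all genes, nkx2.5 stood at 2.21 on the log2 scale at 7 against 3 dpi, gata5 at 1.05, gata4 at -2.28 and mef2cb at -1.13. With totals, gata6 and mef2ca were called lower at 7 dpi against control, at -1.57 and -1.39, and against 3 dpi, at -1.81 and -1.74, and hand2 against 3 dpi, at -1.65. Gata5 was also called lower at 7 dpi against control and against 3 dpi with totals, although TMM scaling called it higher against 3 dpi. Of all 19330 genes, 11770 were called at 7 dpi against control with totals and 13936 at 7 against 3 dpi, of which 6.19% and 6.20% were higher.

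Orders of the groups by mean TMM-scaled level differed from gene to gene. With TMM scaling gata5 and nkx2.5 both ran from 7 dpi through control and 3 dpi down to larval hearts. The step from 7 dpi to control did not pass for either, with edgeR adjusted p of 0.377 and 0.137. For gata5 the step from 3 dpi to larval hearts passed the test, and for nkx2.5 the step from control to 3 dpi. Gata4 and nkx2.7 ran from larval hearts through 3 dpi and control down to 7 dpi, with a called step between control and 7 dpi for gata4 and between larval hearts and 3 dpi for nkx2.7. Tbx20 ran from larval hearts through control and 3 dpi to 7 dpi, with a called last step. For gata6, tbx5a and hand2 no neighbouring groups differed past the threshold. Mef2ca ran from control through 3 and 7 dpi to larval hearts, with a called last step. Mef2cb ran from 3 dpi through control and larval hearts to 7 dpi, with a called step between control and larval hearts. These orders depend on the scaling. With library totals every factor except nkx2.5 had its lowest mean at 7 dpi. Mean gata5 was then 220 in control, 199 at 3 dpi, 111 at 7 dpi and 141 in larval hearts. Mean nkx2.5 was highest in control, at 177 against 119 at 7 dpi, and mean hand2 was 82.3 at 7 dpi against 136 in control.

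Ratios between relatives in one library remove the scaling. The reads of gata5 per read of gata6 were 2.97 and 5.81 in control, 3.03 and 2.97 (3 dpi), 5.96 and 5.76 (7 dpi), and 2.14 and 2.28 in larval hearts. Control replicate 2 thus lay at the 7 dpi value and control replicate 1 at the 3 dpi value. Gata4 per read of gata6 was 0.258 and 0.153 in control, 0.355 and 0.364 (3 dpi), 0.0635 and 0.0771 (7 dpi), and 0.509 and 0.735 in larval hearts, with no overlap between any groups. Mef2ca per read of mef2cb was 2.63 and 1.80 in control, 1.57 and 1.97 (3 dpi), 4.57 and 4.04 (7 dpi), and 1.80 and 1.63 in larval hearts. Both 7 dpi libraries exceeded every other one. Tbx20 per read of tbx5a was 1.296 to 1.91 in the 6 adult libraries and 3.25 and 4.32 in larval hearts. Nkx2.7 per read of nkx2.5 was 0.192 and 0.152 in larval hearts and at most 0.0083 in adult libraries. With 2 libraries a group, an exact two-sided permutation test of such a ratio cannot go below p = 0.333, so none was run.

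**Figure D3:**
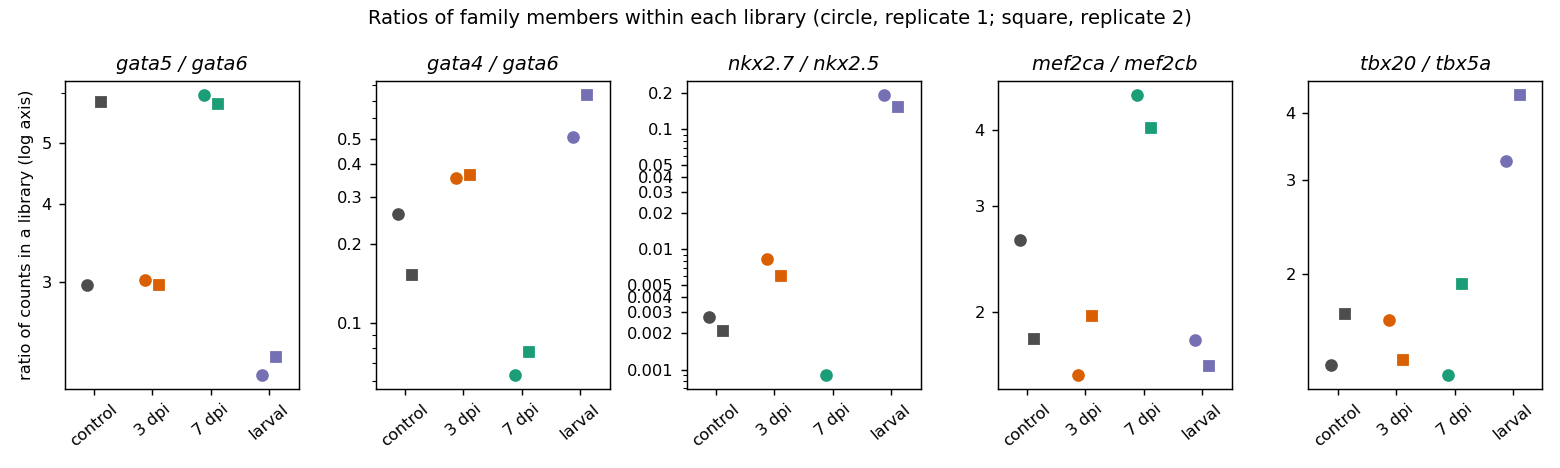
Ratios of read counts of related factors within each library (log axes); circles are replicate 1 and squares replicate 2, and 7 dpi replicate 2, with 0 reads of nkx2.7, has no point in that panel. The mef2ca to mef2cb ratio is 4.57 and 4.04 at 7 dpi and at most 2.63 elsewhere.

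**Figure D4:**
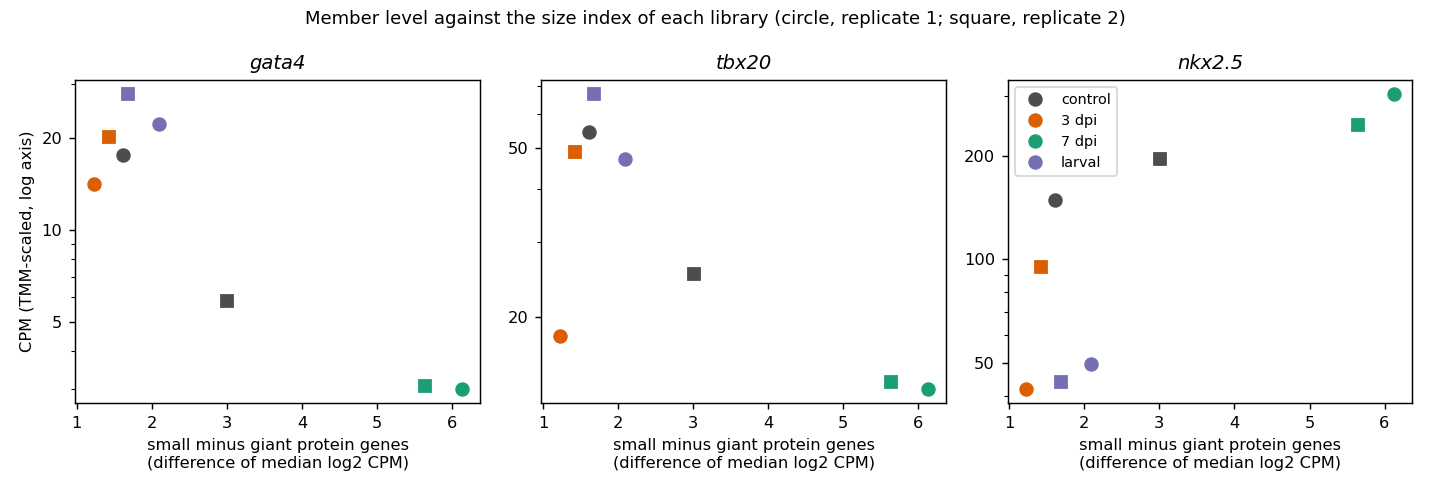
TMM-scaled CPM (log axis) of gata4, tbx20 and nkx2.5 against the small minus giant protein gene index of each library, on a log2 scale; circles are replicate 1 and squares replicate 2. The 7 dpi libraries, at 6.13 and 5.64, lie apart from the others, at 1.22 to 3.01, and control replicate 2 is the nearest to them.

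The 7 dpi libraries had the highest index, for called and uncalled members alike, so a coincidence of calls with the index is built into the groups. Of the genes listed next, gata5, gata6, nkx2.5, hand2 and mef2ca were not called at 7 dpi against control. Control replicate 2, at an index of 3.01 against 1.61 in replicate 1, was also the lower control library for gata4, gata6, tbx5a, tbx20, mef2ca and mef2cb, and the higher one for gata5, nkx2.5 and hand2. With the index as a covariate in the edgeR fit, an alternative added after the data were seen, 0 of all 19330 genes were called at 7 dpi against control or against 3 dpi, so nothing is read from it about the members. No other group reaches the 7 dpi index, and that fit extrapolates. At 3 dpi the index, 1.22 and 1.43, was close to that of control replicate 1. Between those 3 dpi libraries tbx5a was at 11.1 and 35.5 CPM and tbx20 at 18.1 and 48.9 CPM.

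Relatives and partners of these factors were tested in the same fit, from lists that were drawn up with earlier results of these data known. Among all tested genes, 9.05% rose and 6.55% fell at 3 dpi against control. The shares were 18.7% and 20.0% at 7 dpi against control, and 32.6% and 27.6% in larval hearts against control. List counts here and below are to be read beside these shares. A gene near 0 in all adult libraries passes the low-count filter only through the larval pair. The list counts called higher in larval hearts are therefore partly set by the filter. Of 17 tested paralogs outside the members, 0 rose and 1 fell at 3 dpi against control, the erythroid factor gata1a, at -1.23. At 7 dpi 3 rose and 6 fell, with a median of -0.996 beside -0.13 over all tested genes. Those that fell included the chamber and epicardial T-box genes tbx2b, at -2.26, and tbx18, at -1.21, and the muscle factors mef2d, at -1.29, and mef2ab, with 0.183 and 0.0830 CPM against 1.80 and 1.06. Those that rose included gata2a, at 1.06, and gata3, at 1.71, both used in blood and nerve cells. In larval hearts 7 rose and 5 fell, among them tbx2a at 3.08 and gata1a at -6.63. The pharyngeal and gut homeodomain gene nkx2.3 had 11.9 and 7.58 CPM in larval hearts and 0.164 and 0 in control.

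Of 51 tested partners and other heart field factors, 2 rose and 2 fell at 3 dpi, 3.92% each beside 9.05% and 6.55% of all tested genes. The median was -0.20 beside 0.0029 over all tested genes. The flow-responsive factor klf2a fell, at -1.26, as did irx4a, a ventricular homeodomain gene with 0.0579 and 0 CPM against 0.246 and 0.531. Irx4a is near the floor in both groups, and its call rests on few reads. Foxc1b, at 1.23, and the chromatin remodeller smarca4a, at 1.25, rose. At 7 dpi 11 rose and 8 fell, 21.6% and 15.7% of the list, close to the shares of all tested genes, 18.7% and 20.0%. The sarcomere assembly factor smyd1b rose by 3.35, while the Hippo pathway factors tead1b, at -2.61, and tead3b, at -3.16, fell. In larval hearts 25 rose and 12 fell, 49% and 23.5% beside 32.6% and 27.6% of all tested genes. The low-count filter partly sets these counts, as stated above. Sall4 rose, at 7.15, as did the second heart field factor isl1, which had 6.09 and 9.12 CPM against 0 and 0.0590. Zfpm2a, the cofactor of gata proteins, fell by 3.57.

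Of 22 tested inducers of the heart field, 4 rose and 2 fell at 3 dpi, 18.2% and 9.09% beside 9.05% and 6.55% of all tested genes. The retinoic acid synthesis enzyme aldh1a2, at 1.73, and the Wnt ligand wnt2bb, at 1.92, rose, and the apelin receptor aplnrb, at -1.301, fell. At 7 dpi 2 rose, including bmp2b at 2.01, and 2 fell, the Hedgehog transducer smo at -1.40 and the BMP receptor bmpr1aa at -1.06. Each direction held 9.09% of the list, below the 18.7% and 20.0% of all tested genes. In larval hearts 14 rose and 2 fell, 63.6% and 9.09% beside 32.6% and 27.6% of all tested genes. The median was 1.85 beside 0.14 over all tested genes. The low-count filter partly sets these counts, as stated above. Those that rose included bmp2b at 5.97, fgfr1a at 3.74, the Nodal cofactor tdgf1 at 3.72 and bmp4 at 3.33. Fgf10a had 25.2 and 21.5 CPM against 0.164 and 0.

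Markers of neighbouring tissues moved with the larval group, in a comparison with control where 32.6% of all tested genes rose and 27.6% fell. Of 34 tested pectoral fin and pharyngeal arch markers, 29 rose and 3 fell against control, and their summed level was 3325 and 2886 CPM against 161 and 162. Markers near 0 in all adult libraries are tested only because their larval counts pass the filter, so the counts of markers that rose are no support by themselves. The fin fold genes and1, at 362 and 313 CPM, and and2, at 2131 and 1883 CPM, had 4.34 and 3.36 and 0.246 and 0.118 CPM in control, and and3 was at 0 there. Of 31 gut and liver markers 26 rose and 2 fell, summing to 1312 and 1264 CPM against 158 and 165, with hnf4a and cdx1b at 0 in both controls. Of 27 skeletal muscle markers 23 rose and 2 fell, although their sum was 2401 and 2365 CPM against 3347 and 4373. Larval pools still held the cardiomyocyte light chain myl7, at 1538 and 1629 CPM against 13067 and 19025 in control. Of 40 contractile genes 6 rose and 34 fell in larval hearts, and of 8 atrial markers 1 rose and 6 fell. Of 29 endocardium and endothelium markers 2 rose and 21 fell, and of 26 macrophage markers 4 rose and 21 fell. Epicardium and fibroblast markers had 9 rises and 12 falls among 26, smooth muscle and bulbus markers 8 and 3 among 16. Erythroid markers had 7 and 13 among 21, neutrophil markers 4 and 6 among 12, and sympathetic neuron markers 12 and 1 among 16. Hand2, tbx5a, nkx2.7 and the gata genes are also used by fin, arch or gut cells, and the part of these tissues in the larval levels was not tested.

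Marker lists moved between adult groups too. Beside them, 9.05% of all tested genes rose and 6.55% fell at 3 dpi against control. Of 26 macrophage markers 22 rose and 0 fell at 3 dpi against control, and their summed level was 3930 and 2011 CPM against 1177 and 1499, in the libraries where nkx2.5 was at 42.0 and 94.8 CPM. Of 16 smooth muscle and bulbus arteriosus markers 11 rose and 1 fell there, with sums of 1019 and 991 CPM against 418 and 294. Of 40 contractile genes 5 rose and 9 fell, with a median of -0.88. Of 8 atrial markers 0 rose and 1 fell, with sums of 9773 and 18824 CPM against 29556 and 29021 in control. The part of these cells in the nkx2.5 fall was not tested.

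At 7 dpi against control, where gata4, tbx5a, tbx20 and mef2cb fell, 10 of the 16 smooth muscle and bulbus markers rose and 3 fell, with sums of 1732 and 2119 CPM. All tested genes had 18.7% higher and 20.0% lower in that comparison. Of 12 neutrophil markers 1 rose and 8 fell, with sums of 591 and 533 CPM against 878 and 678. Of 40 contractile genes 14 rose and 8 fell, with a median of 0.52. Of 27 skeletal muscle markers 9 rose and 0 fell, and of 34 fin and arch markers 9 rose and 0 fell, with sums of 265 and 252 CPM for the latter. As shares of all counts, fin and arch markers were lower at 7 dpi, at 0.0111% and 0.0114% against 0.0181% and 0.0155% in control. Skeletal muscle markers overlapped, at 0.437% and 0.395% against 0.376% and 0.418%. The skeletal muscle list summed to 3347 and 4373 CPM in control, 646 and 1546 (3 dpi), and 10476 and 8742 (7 dpi). These sums ranked the adult groups as the contractile sums did, so rises of that list cannot be assigned to skeletal muscle cells. Smooth muscle and bulbus markers stayed higher, at 0.0723% and 0.0958% against 0.0469% and 0.0281%. From 3 to 7 dpi 24 of 26 macrophage markers fell and 0 rose, 12 of 27 skeletal muscle markers rose and 0 fell, and 12 of 21 erythroid markers rose and 2 fell. The shares of all tested genes were 22.8% higher and 28.1% lower from 3 to 7 dpi. Erythroid sums were 18582 and 46666 CPM at 7 dpi, 3360 and 4217 (3 dpi) and 6070 and 15934 in control. The part of these cells in the falls and rises of the factors was not tested.

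**Figure D5:**
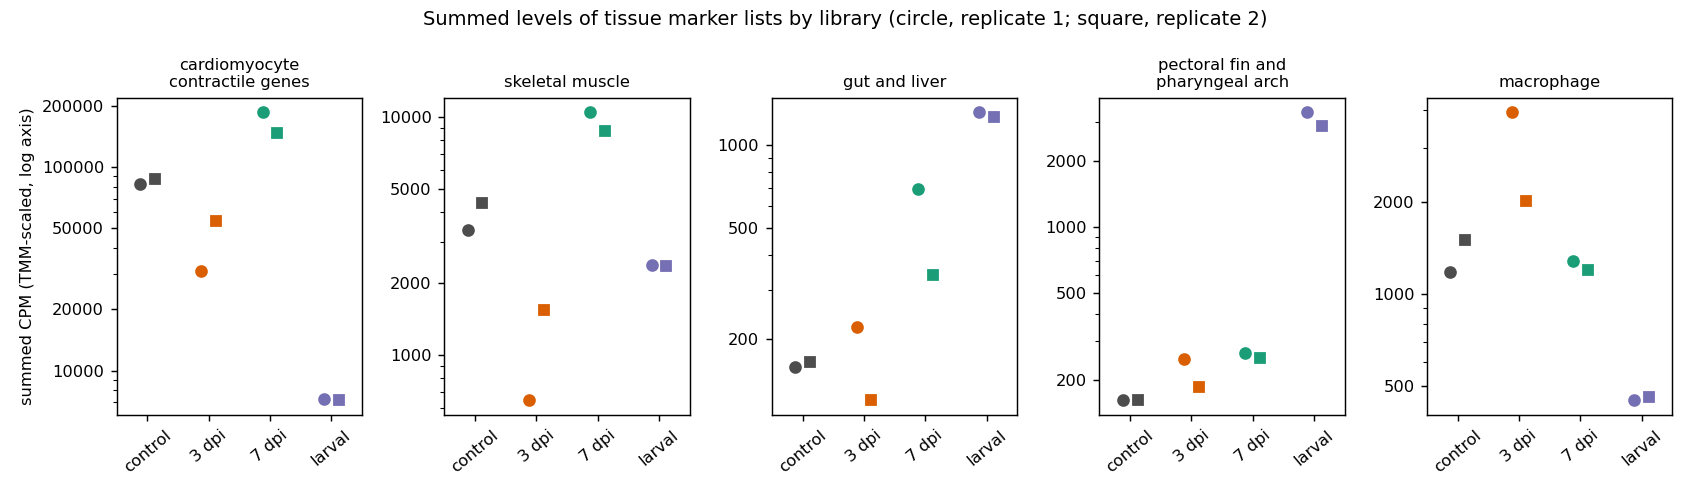
Summed TMM-scaled CPM (log axis) of marker lists in each library; circles are replicate 1 and squares replicate 2. Pectoral fin and pharyngeal arch markers sum to 3325 and 2886 CPM in larval hearts and to 161 to 265 CPM in adult hearts, while contractile genes are lowest in larval hearts.

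Likeness of pattern was measured as the root mean square difference in centred log2 CPM over the 8 libraries, where a smaller value means a closer pattern; the libraries share groups, depth and scaling. The nearest genes to nkx2.5 were hes6 at 0.14, aldh2.1 at 0.14 and smyd2a at 0.15, and to gata5 gtf3c3 at 0.12, svbp at 0.12 and bsg at 0.13. For gata4 they were pla2g4aa at 0.18 and spred2b at 0.19, and for gata6 rbm27 at 0.14, akap1b at 0.16 and nup214 at 0.17. Such values are for genes chosen as nearest among all candidates, and they say nothing of function.

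Tbx5a lay nearest to myom2b at 0.19, twf2a at 0.30 and ppap2d at 0.34, and tbx20 to amer1 at 0.20, atg9b at 0.25 and slc18a2 at 0.26. Hand2 lay nearest to ift140 at 0.22, id2a at 0.22 and calm3a at 0.26. Mef2ca had gnas at 0.12, sdk2b at 0.12 and nfatc1 at 0.15, and mef2cb had klc1a at 0.09, mtor at 0.10 and glg1a at 0.11. Nkx2.7 had the most distant neighbours by this measure, gdf6a at 0.29, lhfpl3 at 0.36 and TFR2 at 0.37. The measure tends to grow with a gene's own log2 range, which was 6.46 for nkx2.7 and 0.85 for gata6. Pearson correlations with those neighbours were 0.993, 0.984 and 0.984 for nkx2.7, against 0.87, 0.84 and 0.80 for gata6 and its neighbours. Of the 30 genes nearest to the members, 28 were found again with a smaller prior count, the exceptions being gdf6a and slc18a2.

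Among the members themselves the closest pair by this measure was gata6 and mef2ca, at 0.32, with log2 ranges of 0.85 and 1.42. Nkx2.5 and hand2 both lay nearest to gata5, at 0.53 each, whereas gata4 and tbx20 were nearest to each other, at 0.59. Gata4 was farthest from nkx2.5, at 2.19. Nkx2.7 was nearest to gata4, at 1.40.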

How the data were processed

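Total RNA of pooled hearts was sequenced. Per the submitters' processing notes, the authors aligned reads to GRCz10 with TopHat2 2.0.13 and counted them per gene with HTSeq; the deposited counts are raw. The authors' second deposited table holds RPM, reads scaled to the library total, of the 6 adult libraries; its values match count over total for 100% of its 23350 genes within a relative tolerance of 1e-04, with control replicate numbers reversed. The count table's numbers are used, and no column was left out. The sources used here give neither strand setting nor annotation release.

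Counts were tested with edgeR 4.0.16 in R 4.3.3: all 8 libraries in 1 fit, a coefficient per group, filterByExpr, TMM, quasi-likelihood F tests and Benjamini-Hochberg adjustment over 19330 genes. The fit has 4 residual degrees of freedom, to which the tests add prior degrees of freedom estimated across genes. Standard errors were back-calculated from the test statistic. With 2 against 2 libraries an exact permutation p cannot go below 0.333, so tests borrow the spread across groups and genes. The procedure was also run on simulated counts, where 200 genes were changed and library totals, without TMM factors, set the depth. For 7 dpi against control (18186 genes) it called 3% of 2-fold and 56% of 4-fold changes. Over the 6 comparisons these shares ran from 3% to 11% and from 56% to 62%. In the data 38.7% of genes were called at 7 dpi against control, so these are not detection rates for the members. Alternatives used other scalings and filters, DESeq2 1.42.0, limma 3.58.1 on log2(RPM + 0.5), a replicate block, single libraries left out and a small-protein index.

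The 10 members and the lists were chosen with earlier results of these data known. All members are named; other genes are the 3 nearest to each member in pattern (mean of at least 5 CPM in the highest group, prior count 2; 1 of them is not reported here), and up to 6 called genes per list by smallest p-value plus the gene of highest CPM. Symbols came from the RPM table for 23350 genes and a gene names table for 4026; 4577 have none. Counts lack molecular identifiers, so intervals cover counting error only.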

Additional observations from a re-analysis of the deposited data

Results flagged for a closer look

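For 5 factors the effect of 7 dpi against control differed from that of 3 dpi against control, tested as the contrast of 7 dpi against 3 dpi in the edgeR fit. The log2 difference was -2.49 for gata4, 0.85 for gata5, 2.00 for nkx2.5, -1.27 for tbx20 and -1.34 for mef2cb. The 7 dpi libraries have their own column-name prefix and the highest small minus giant index, so prefix, index and time cannot be told apart. With library totals gata5 was at -0.84 and was called lower, and nkx2.5 was at 0.32. Gata4, tbx20 and mef2cb were called lower under both scalings. With TMM scaling the tbx20 call was lost without 3 dpi replicate 2 or either 7 dpi library, and with the replicate number as a block. The gata5 call was lost without 3 dpi replicate 1 or 7 dpi replicate 1.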

How the results depend on the processing

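At member level, 646 of 805 alternative values kept their direction and their side of the threshold, 51 lost the call, 36 gained one and 72 changed sign. The cause of these changes was not tested unless stated. Scaling by library totals called 0 members at 3 dpi against control, 8 at 7 dpi against control, 9 at 7 against 3 dpi and 2 in larval hearts against 3 dpi, beside 4055, 11770, 13936 and 10329 of 19330 genes. In larval hearts it called 4 members against control and 8 against 7 dpi, beside 12029 and 15579 genes. Those 8 were all higher, as were 88.3% of the genes called there, whereas TMM scaling called 3 higher and 3 lower. Signs turned to 0.24 for gata6, 0.35 for mef2ca, 0.13 for tbx20 and 0.12 for tbx5a at 3 dpi against control, and to -0.98 for gata5, -0.73 for hand2 and -0.58 for nkx2.5 at 7 dpi against control. They turned to -0.84 for gata5 and -1.65 for hand2 at 7 against 3 dpi, and to 0.19 for gata6, 0.40 for hand2 and 0.0099 for mef2cb in larval hearts against control. Against 7 dpi larval values became 0.35 for gata5, 1.76 for gata6, 1.13 for hand2 and 0.98 for mef2ca. Gata6, hand2 and mef2ca were then called higher, with edgeR adjusted p of 0.00074, 0.00893 and 0.0124, though mef2ca was called lower with TMM scaling. Limma on log2(RPM + 0.5), which also uses library totals, called 7 members at 7 dpi against control and 8 at 7 against 3 dpi, beside 9811 and 11830 of 14950 genes, of which 5.75% and 6.05% were higher. At 3 dpi against control it gave 0.32 for gata6, 0.43 for mef2ca, 0.12 for tbx20 and 0.12 for tbx5a. At 7 dpi against control it gave -0.98 for gata5, -0.74 for hand2 and -0.57 for nkx2.5, and against 3 dpi -0.83 for gata5 and -1.65 for hand2. Without a low-count filter hand2 at 7 against 3 dpi was at -3.7e-05, and with upper-quartile scaling at -0.056.

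The size index covariate, chosen after seeing the data, called 0 members at 3 dpi against control, 0 at 7 dpi against control, 0 at 7 against 3 dpi and 0 in larval hearts against 7 dpi, beside 705, 0, 0 and 270 of 19330 genes, so these counts say nothing of the members. In larval hearts the covariate fit called 2 members higher and 4 lower against control, as without it, beside 11129 genes. Against 3 dpi it also called 2 higher and 4 lower, beside 9304 genes. It gave -0.18 for gata4 at 3 dpi against control. At 7 dpi against control it gave 1.70 for gata4, -0.45 for gata5, 1.05 for gata6, -2.11 for hand2, 1.38 for mef2ca, -0.81 for nkx2.5, 0.88 for tbx20 and 0.83 for tbx5a. At 7 against 3 dpi it gave 1.88 for gata4, -0.078 for gata5, 1.4996 for gata6, -3.34 for hand2, 1.77 for mef2ca, 1.63 for tbx20 and 1.53 for tbx5a. Larval hand2 against control was at 0.13, and larval values against 7 dpi were -0.82 for gata4, 2.24 for hand2, -0.21 for mef2cb, -0.55 for tbx20 and -1.84 for tbx5a. Fitting only the 2 groups compared called 0 members at 3 dpi against control.

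With single libraries left out, members called ranged from 0 to 2 at 3 dpi against control, 1 to 4 at 7 dpi against control, 4 to 5 at 7 against 3 dpi, and in larval hearts 3 to 6 against control, 1 to 7 against 3 dpi and 5 to 7 against 7 dpi. Log2 differences that changed sign at 3 dpi against control ranged from -0.028 to 1.503 for gata4, -0.51 to 0.26 for gata6, -0.40 to 0.35 for mef2ca, -0.24 to 0.47 for nkx2.7, -1.14 to 0.36 for tbx20 and -1.32 to 0.58 for tbx5a. At 7 dpi against control they ranged from -0.65 to 0.16 for gata6 and -0.46 to 0.33 for mef2ca, and against 3 dpi from -0.36 to 0.12 for gata6, -0.43 to 0.48 for hand2 and -0.13 to 0.016 for mef2ca. Larval differences ranged from -0.74 to 0.0098 for gata6 and -0.65 to 0.22 for hand2 against control, from -0.46 to 0.030 for gata6, -1.04 to 0.15 for nkx2.5 and -1.26 to 0.43 for tbx5a against 3 dpi, and from -0.25 to 0.020 for gata6 against 7 dpi.

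Correlations of the replicate differences between groups ran from -0.14 to 0.07, so no pairing by replicate number was seen. With 1 such difference per group they cannot exclude a small shared effect, and the labels do not say whether equal numbers share a clutch or treatment. With the replicate number as a block, 1, 4, 4, 6, 3 and 6 members were called at 3 dpi against control, 7 dpi against control, 7 against 3 dpi, and in larval hearts against control, 3 dpi and 7 dpi. The protein-length offset was not run, since no lengths were at hand. Depth limits nkx2.7 in adult hearts, where libraries held 0 to 11 counts.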
